A study of Mus musculus with 12 samples.

Results

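Immediate early genes, the NR4A genes and the feedback genes of NF-kB were followed in T follicular helper (TFH) cells, the CD4 T cells that help B cells in follicles, and in other CD4 T cells. All 35 of 35 chosen symbols were found by gene symbol among the 23241 features of the 12 expression tables, and all 35 passed the filter on low values. The cells were sorted from spleens of C57BL/6 mice. KO TFH and WT TFH cells were CD4+ and positive for CXCR5 and PD-1, and KO non-TFH and WT non-TFH cells were CD4+ and negative for both. Every mouse carried floxed Ets1 alleles (Ets1 fl/fl), and KO mice also carried CD4-cre, which acts in T cells from late thymocyte development on. WT mice lacked the Cre transgene, so that the Cre and the deletion cannot be told apart. The 4 groups had 3 libraries each. The sources used here give neither age, immunization nor pooling of animals, and do not state whether replicates came from separate mice. The p-values therefore measure the spread between these libraries, which may be technical.

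Immediate early genes are switched on within minutes of a stimulus by factors already present in the cell, among them SRF, CREB and NF-kB. In T cells the antigen receptor induces them through the ERK, calcium and NF-kB pathways, and the NR4A and EGR genes among them are used as reporters of antigen receptor signalling. Many of their products are transcription factors. Others end the signal, by holding NF-kB in the cytoplasm, removing ubiquitin chains, inactivating MAP kinases or destroying short-lived mRNAs. The same genes also respond to heat, cell stress and the handling of tissue during sorting.

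Levels are FPKM (mapped fragments relative to transcript length and library depth), scaled between libraries by a median ratio. Counts were not among the values, and depth was estimated at 11.7 to 13.9 M fragments for TFH libraries and 13.4 to 15.4 M for non-TFH libraries. Cd3e, a subunit of the T cell receptor complex, was present in every group at means of 231 to 655 FPKM. Pdcd1, which encodes PD-1, averaged 637 ± 58.8 FPKM in KO TFH cells, 353 ± 33.3 in WT TFH cells, 1.47 ± 0.0803 in KO non-TFH cells and 1.58 ± 0.0865 in WT non-TFH cells (SD, n = 3 each). Ets1, the targeted gene, did not fall in either cell type. It averaged 253 ± 26.1 FPKM in KO TFH cells and 196 ± 22.9 in WT TFH cells, a log2 change of 0.37 ± 0.10 (SE, limma adjusted p = 0.015). This rise passed in 17 of 21 alternative analyses. It was lost with quantile normalization (0.17, adjusted p = 0.21), with TFH libraries fitted alone (0.079) and without KO TFH replicate 2 (0.057) or 3 (0.053). In KO non-TFH cells Ets1 averaged 400.1 ± 17.95 FPKM, against 407 ± 5.12 in WT non-TFH cells, a log2 change of -0.03 ± 0.10 (SE, limma adjusted p = 0.91). A gene total also covers exons that a deletion can leave, so it does not check the labels, and KO is used here as the labels give it.

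Macrophage transcripts and the library KO non-TFH replicate 1 are described before the members. The part of macrophage transcripts in the results that follow was not tested. Of 17 macrophage and monocyte markers, 15 had a value in every library, and their summed level was 316 to 397 FPKM in KO TFH libraries, against 1533 to 2763 FPKM in WT TFH libraries. In KO non-TFH libraries it was 56.2 to 72.6 FPKM, against 23.3 to 39.5 FPKM in WT non-TFH libraries. Lyz2 and Tyrobp, each missing in at least 1 library, were left out of the sum. Lyz2 went against it, at 469 to 756 FPKM in KO TFH libraries, above the whole sum there. In the WT TFH libraries with a value Lyz2 stood at 278 and 289 FPKM. Tyrobp went with the sum, at 49.2 to 72.1 FPKM in KO TFH libraries, against 203 and 332 FPKM in WT TFH libraries. The sum therefore does not stand for every macrophage transcript. None of the 17 was at 0 in every library of a group. In bulk RNA, fewer cells of a type and less RNA per cell cannot be told apart. KO non-TFH replicate 1 stood apart from its mates in the immediate early genes. Of 32 members with a level to compare, 14 were at least 2-fold above the mean of replicates 2 and 3, and 0 were 2-fold below it. Over all features tested, 1.19% of 9568 were that high in this library. Calls and counts that it changes are given with and without it. Because the members' own values singled this library out, p-values without it are descriptive and no independent support.

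The plot of KO non-TFH libraries against each other shows which members carried the difference. Fosb stood 19.5-fold above the mean of replicates 2 and 3, Klf4 11.8-fold, Dusp1 8.54-fold, Rgs2 7.01-fold and Jun 5.03-fold. Egr2 (0.886-fold), Nr4a3 (0.952-fold), Cd83 (1.07-fold) and Ier3 (1.09-fold) were close to their mates. In each other library of the series, at most 2 members were at least 2-fold above their mates. The summed level of 5 heat shock genes was 1455 FPKM in KO non-TFH replicate 1, against 1125 and 1621 FPKM in its mates, so this library did not stand apart in that sum. Most of the sum was Hspa8, at 1044 FPKM in replicate 1, against 790 and 1147 FPKM in its mates. Of the 8 heat shock genes listed, Hspa1a, Hspa1b and Dnaja1 were not present as features of their own. The sum does not cover them. Its macrophage sum was 72.6 FPKM, against 67.05 and 56.2 FPKM in its mates. The part of handling in the difference between these libraries was not tested.

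**Figure D1:**
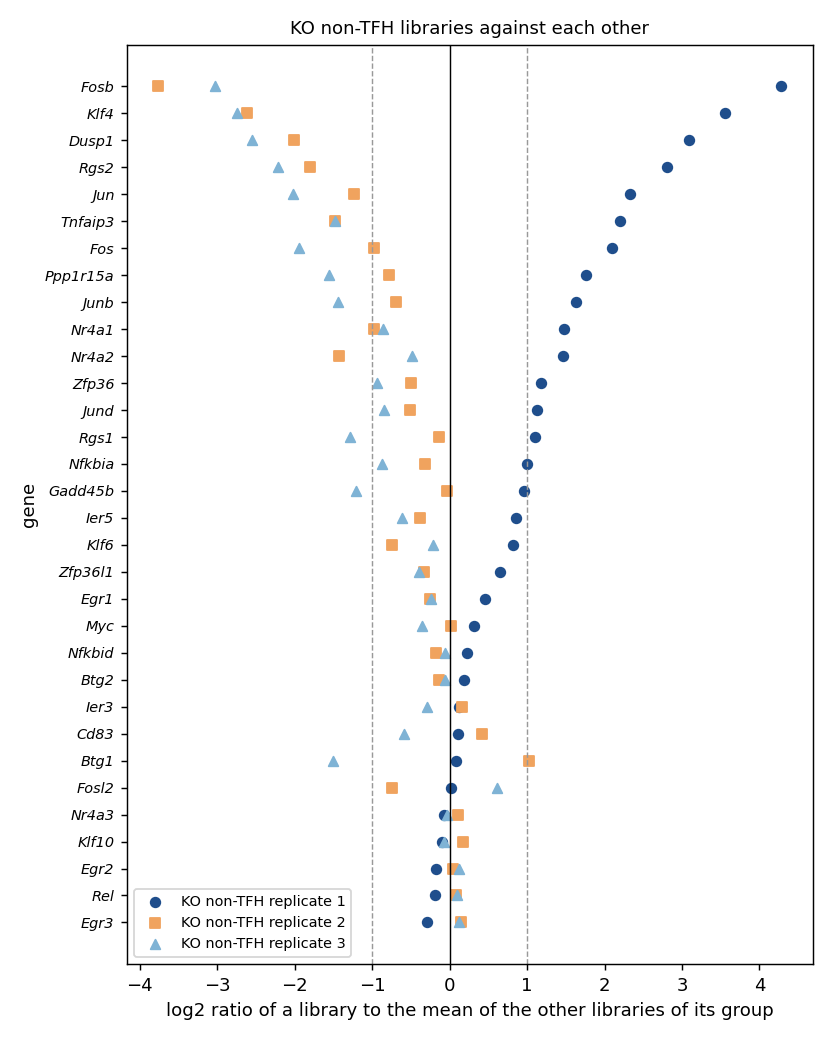
Each KO non-TFH library against the mean of the other libraries of its group, on a log2 axis, for the 32 members with a level to compare (rows). Dashed lines mark a 2-fold difference; the circles of replicate 1 lie to the right of the upper line for 14 members, from Rgs1 at 2.15-fold to Fosb at 19.5-fold.

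Promoters of these genes are known for sites that bind already present factors. RefSeq holds a promoter on GRCm38.p6, the assembly of mm10, for 27 of the 35 members, and the 250 bases before each start were searched on both strands. The cAMP response element core TGACGT, bound by CREB and ATF factors, was in 10 of the 27 (37.0%), against 6.56% of all 27025 promoters of the same length and 10.9% of the 8035 promoters of tested genes. The NF-kB motif (GGG, any 2 bases, TT, any base and CC) was in 3 of 27 (11.1%), against 4.0% of all promoters and 4.64% of those of tested genes. The other shares are given against all promoters and then those of tested genes. The AP-1 motif TGANTCA was in 2 (7.41%, against 6.87% and 3.97%), and the EGR motif GCGTGGG in 1 (3.70%, against 4.20% and 7.13%). The ETS motif CCGGAAG was in 1 (3.70%, against 7.05% and 15.1%), and the CArG box of SRF in 1 (3.70%, against 1.40% and 1.095%). A match is a description of these letters and not a binding site. The palindrome form of the cAMP response element matches on both strands and counts once per promoter.

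Promoters of 5 members that rose or fell by genotype in a cell type are shown, since they carry the 2 motifs most often found above. Each is the 250 bases 5′ to 3′ up to the base before the start, in lower case, with motif matches in capitals.
Fos (chr12:85473640-85473889, plus strand): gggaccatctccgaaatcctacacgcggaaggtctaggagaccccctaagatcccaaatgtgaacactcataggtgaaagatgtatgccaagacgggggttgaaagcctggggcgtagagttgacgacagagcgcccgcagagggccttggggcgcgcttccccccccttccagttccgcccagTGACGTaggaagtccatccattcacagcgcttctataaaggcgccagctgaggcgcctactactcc
Ppp1r15a (chr7:45526269-45526518, minus strand): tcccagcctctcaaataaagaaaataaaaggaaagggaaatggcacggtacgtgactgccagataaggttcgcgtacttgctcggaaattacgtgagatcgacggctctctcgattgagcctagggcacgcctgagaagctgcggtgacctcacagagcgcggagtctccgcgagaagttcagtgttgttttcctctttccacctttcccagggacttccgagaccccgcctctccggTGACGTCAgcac
Tnfaip3 (chr10:19015411-19015660, minus strand): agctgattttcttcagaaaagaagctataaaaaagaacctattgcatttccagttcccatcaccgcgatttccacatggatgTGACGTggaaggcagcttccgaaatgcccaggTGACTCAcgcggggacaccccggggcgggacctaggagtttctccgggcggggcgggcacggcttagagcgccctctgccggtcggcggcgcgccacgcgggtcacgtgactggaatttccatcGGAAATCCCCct
Nr4a3 (chr4:48045055-48045304, plus strand): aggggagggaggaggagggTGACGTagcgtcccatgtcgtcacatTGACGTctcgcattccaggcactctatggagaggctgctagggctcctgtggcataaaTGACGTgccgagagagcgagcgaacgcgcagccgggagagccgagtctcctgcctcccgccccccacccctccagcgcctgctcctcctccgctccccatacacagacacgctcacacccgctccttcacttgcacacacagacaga
Nfkbia (chr12:55492648-55492897, minus strand): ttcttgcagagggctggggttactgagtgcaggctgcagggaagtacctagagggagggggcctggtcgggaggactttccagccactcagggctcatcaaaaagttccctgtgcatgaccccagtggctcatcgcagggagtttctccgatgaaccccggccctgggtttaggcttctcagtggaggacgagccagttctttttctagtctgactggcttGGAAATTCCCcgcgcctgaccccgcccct
Counted from the start, the response element of Fos began at -66 and the overlapping pair of Ppp1r15a at -12 and -10. Tnfaip3 held a response element at -168, an AP-1 match at -136 and an NF-kB match at -12. Nr4a3 held 3 response elements, at -231, -205 and -147. All positions are counted from the RefSeq start, and the GENCODE annotation places 2 of these genes' starts elsewhere. Its span of Tnfaip3 reaches 19015657, so nearly all of the printed stretch lies inside that span. Its span of Nr4a3 starts at 48045153, inside the printed stretch. Nfkbia, whose product holds NF-kB in the cytoplasm and which NF-kB itself induces, had its NF-kB match at -29.

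In TFH cells most called members were lower in KO than in WT mice. Of the 35 members, 17 fell and 2 rose, and 16 did not pass the test. Over all 11108 features tested, 15% fell and 15.6% rose, 30.6% in all. The median log2 change of the members was -1.06, against 0.04 for all features tested. The members that fell included Fos, Jun, Junb and Atf3 of AP-1, both mRNA decay genes, both RGS genes and Tnfaip3; Egr2 and Ier3 rose. KO and WT libraries did not overlap for 23 members lower and 2 higher in KO, against 17.8% and 20.1% of all features. Without KO non-TFH replicate 1, which is in neither group but adds to the shared estimate of the spread, 20 members fell and 2 rose, against 28.7% of all features called. With libraries weighted by their fit to the model (array weights), 7 members fell and 1 rose, against 20% of all features called. Fos, Jun, Junb, Egr2, Nr4a1, Klf4, Zfp36, Ppp1r15a, Nfkbid, Tnfaip3 and Rgs2 then kept their direction without passing (adjusted p 0.057 to 0.28). Jun and Tnfaip3 also lost their calls without the filter or with quantile normalization (0.059 to 0.073). In the heat map Fos, Junb and Ppp1r15a are pale or blue in KO TFH libraries and red in WT TFH libraries.

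**Figure D2:**
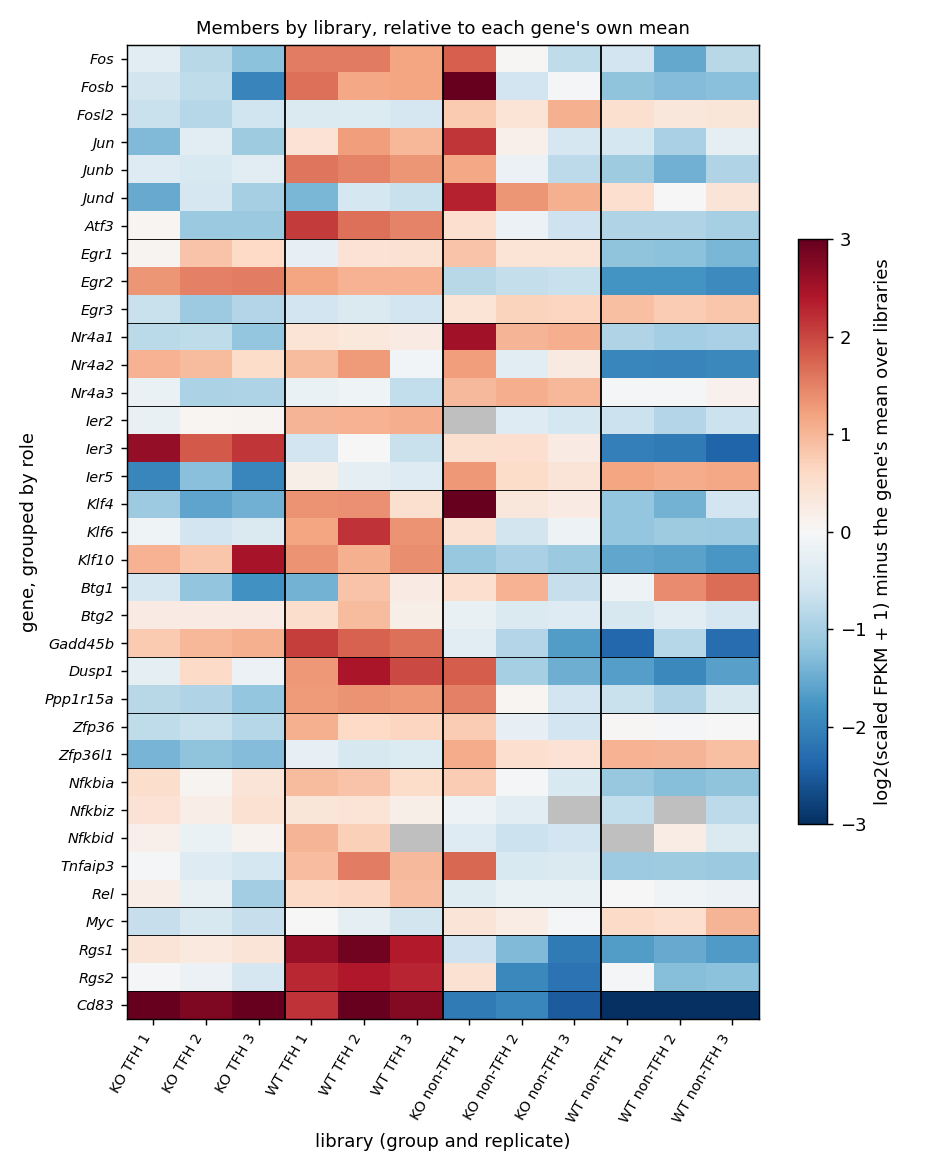
Members (rows, grouped by role) in the 12 libraries (columns). Colour is log2(scaled FPKM + 1) minus the gene's mean over libraries, limited to 3 in either direction, and grey marks a missing value. WT TFH libraries and KO non-TFH replicate 1 are red for Fos, Junb and Ppp1r15a, and KO TFH libraries are red for Ier3 and Cd83.

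The AP-1 genes encode the FOS, JUN and ATF proteins that pair to form the AP-1 factor. Of 7 members, 4 fell and 3 did not pass. Fos stood at 179, 126 and 94.9 FPKM in KO TFH libraries, against 645, 657 and 511 FPKM in WT TFH libraries. Junb stood at 250.1, 238 and 261 FPKM in KO TFH libraries, against 1008, 917 and 823 FPKM in WT TFH libraries. Jun stood at 17.1, 34.7 and 20.4 FPKM in KO TFH libraries, against 59.5, 106 and 87.8 FPKM in WT TFH libraries. For each of the 3 genes every KO TFH library was below every WT TFH library. The log2 change was -2.21 ± 0.56 (SE, limma adjusted p = 0.016) for Fos, -1.87 ± 0.40 (SE, limma adjusted p = 0.0059) for Junb and -1.79 ± 0.60 (SE, limma adjusted p = 0.048) for Jun. Atf3, a stress-induced member that represses many of its targets, was at 1.24, 0 and 0 FPKM in KO TFH libraries, against 8.18, 5.81 and 5.06 FPKM in WT TFH libraries. Because KO TFH replicates 2 and 3 list it at 0, no fold is given; its call was lower, with a limma adjusted p of 0.00029. With values at 0 taken as missing, the lone KO TFH library left a log2 change of -1.69 and an adjusted p of 0.0080, under the assumption that it varies like the other groups. Fosb was at 2.98, 2.45 and 0.467 FPKM in KO TFH libraries, against 17.3, 12.05 and 12.2 FPKM in WT TFH libraries. These did not overlap, yet its log2 change of -2.43 ± 0.93 (SE, limma adjusted p = 0.077) did not pass. Without KO non-TFH replicate 1 it was -2.43 ± 0.34 (SE, adjusted p = 0.00043). Fosl2 (-0.26) and Jund (-0.16) did not pass. Jun lost its call without any 1 library except KO TFH replicate 2 and KO non-TFH replicates 1 and 3 (adjusted p 0.056 to 0.12), and Fos lost it without KO TFH replicate 3 (0.051).

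The EGR genes encode zinc finger factors of the ERK and calcium pathways, and EGR2 is known for restraint of T cell activation. Egr2 was at 51.3, 58.3 and 59.6 FPKM in KO TFH libraries, against 46.4, 41.9 and 41.8 FPKM in WT TFH libraries. The groups did not overlap, and the log2 change was small, 0.37 ± 0.11 (SE, limma adjusted p = 0.020). It lost its call without KO TFH replicate 2 (adjusted p = 0.054) or replicate 3 (0.066), in the fit of TFH libraries alone (0.073) and with quantile normalization (0.062). Egr1 (0.29) and Egr3 (-0.35) did not pass. Nr4a1, which encodes the orphan receptor NUR77, was at 21.6, 22.5 and 16.8 FPKM in KO TFH libraries, against 52.2, 48.4 and 46.6 FPKM in WT TFH libraries. All KO TFH libraries were lower, with a log2 change of -1.24 ± 0.32 (SE, limma adjusted p = 0.012). Nr4a2 ranged from 5.77 to 8.44 FPKM in KO TFH libraries and from 3.39 to 10.1 FPKM in WT TFH libraries, and Nr4a3 from 1.36 to 3.03 FPKM in KO TFH libraries and from 1.77 to 3.22 FPKM in WT TFH libraries. Neither passed, with log2 changes of 0.13 ± 0.39 for Nr4a2 and -0.34 ± 0.23 for Nr4a3 (SE), although Nr4a3 did so without KO TFH replicate 1 (-0.59, adjusted p = 0.045).

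Among the IER genes, small immediate early genes with few introns, Ier3 moved against the rest. Its product is known as a stress-induced regulator of survival. Ier3 stood at 34.6, 19.5 and 24.3 FPKM in KO TFH libraries, against 2.79, 4.62 and 2.57 FPKM in WT TFH libraries. Every KO TFH library was higher, with a log2 change of 2.64 ± 0.23 (SE, limma adjusted p = 1.0e-05), called in all 21 alternative analyses. Ier2 was at 76.4, 92.8 and 94.6 FPKM in KO TFH libraries, against 181, 185 and 189 FPKM in WT TFH libraries. Ier5 was at 3.44, 6.14 and 3.42 FPKM in KO TFH libraries, against 18.2, 13.2 and 12.04 FPKM in WT TFH libraries. Both were lower in every KO TFH library, with log2 changes of -1.07 ± 0.11 (SE, limma adjusted p = 3.7e-05) for Ier2 and -1.56 ± 0.25 (SE, limma adjusted p = 0.00079) for Ier5.

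Of the KLF genes, Klf6 and Klf4 fell and Klf10 did not pass. Klf6 was at 47.5, 34.5 and 38.4 FPKM in KO TFH libraries, against 119, 237 and 134 FPKM in WT TFH libraries. Klf4, a factor associated with quiescence in T cells and with monocyte differentiation, was at 0.635, 0.1797 and 0.284 FPKM in KO TFH libraries, against 7.87, 8.11 and 3.85 FPKM in WT TFH libraries. Neither gene's groups overlapped, and the log2 change was -1.94 ± 0.28 (SE, limma adjusted p = 0.00034) for Klf6 and -2.44 ± 0.73 (SE, limma adjusted p = 0.029) for Klf4. Klf4 lost its call without any 1 KO TFH library or without WT TFH replicate 1 or 2 (adjusted p 0.054 to 0.076). Klf10, induced by TGF-beta, stood at 27.8, 23.9 and 77.8 FPKM in KO TFH libraries, against 35.1, 28.4 and 35.8 FPKM in WT TFH libraries. KO TFH replicate 3 was far above the other libraries, and the groups overlapped.

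Among other feedback genes, Zfp36, Zfp36l1 and Ppp1r15a fell as well. Zfp36 encodes tristetraprolin and Zfp36l1 a relative; both bind AU-rich elements in cytokine and immediate early mRNAs and speed their decay. Zfp36 was at 124, 132 and 117 FPKM in KO TFH libraries, against 447, 321 and 331 FPKM in WT TFH libraries. Zfp36l1 was at 14.6, 16.7 and 15.7 FPKM in KO TFH libraries, against 33.7, 28.5 and 29.97 FPKM in WT TFH libraries. All KO TFH libraries were lower for both, with log2 changes of -1.53 ± 0.27 (SE, limma adjusted p = 0.0017) for Zfp36 and -0.93 ± 0.16 (SE, limma adjusted p = 0.00097) for Zfp36l1. Ppp1r15a, whose product GADD34 restores translation after the integrated stress response, was at 50.7, 48.5 and 40.4 FPKM in KO TFH libraries, against 221, 233 and 223 FPKM in WT TFH libraries. Its libraries were clearly apart, with a log2 change of -2.26 ± 0.41 (SE, limma adjusted p = 0.0025). Dusp1, a MAP kinase phosphatase, was at 43.3, 79.3 and 46.7 FPKM in KO TFH libraries, against 131, 293 and 211 FPKM in WT TFH libraries. The groups did not overlap, yet its log2 change of -1.86 ± 0.74 (SE, limma adjusted p = 0.087) passed only without KO non-TFH replicate 1, at -1.86 ± 0.30 (SE, adjusted p = 0.0013), or with TFH libraries fitted alone (adjusted p = 0.011). Gadd45b, Btg1 and Btg2, which slow the cell cycle, did not pass. Gadd45b was at 49.4, 57.6 and 60.98 FPKM in KO TFH libraries, against 123, 99.5 and 91.7 FPKM in WT TFH libraries, without overlap, and passed with TFH libraries fitted alone (-0.89, adjusted p = 0.0049) or without WT non-TFH replicate 2 (0.035). Btg2 passed without WT TFH replicate 3 (-0.50, adjusted p = 0.012). Btg1 ranged from 53.0 to 132 FPKM in KO TFH libraries and from 69.5 to 343 FPKM in WT TFH libraries; the Cufflinks interval of its WT TFH replicate 1 value ran from 0 to 45241 FPKM, so that value carries little information.

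NF-kB members gave 3 genes that fell of 5. Rel, the c-Rel subunit, which T cells need for a full response to antigen, was at 16.4, 11.99 and 6.35 FPKM in KO TFH libraries, against 21.5, 22.1 and 27.7 FPKM in WT TFH libraries. Tnfaip3, which encodes the ubiquitin-editing inhibitor A20, was at 42.2, 33.5 and 30.4 FPKM in KO TFH libraries, against 85.7, 130.02 and 87.6 FPKM in WT TFH libraries. Nfkbid, an atypical nuclear IkB protein, was at 32.8, 25.7 and 32.2 FPKM in KO TFH libraries, against 61.5 and 49.2 FPKM in WT TFH libraries, with WT TFH replicate 3 missing because Cufflinks joined it to Tyrobp there. Each gene's KO TFH libraries lay below its WT TFH libraries, with log2 changes of -1.06 ± 0.25 (SE, limma adjusted p = 0.0073) for Rel, -1.47 ± 0.49 (SE, limma adjusted p = 0.047) for Tnfaip3 and -0.85 ± 0.21 (SE, limma adjusted p = 0.012) for Nfkbid. Tnfaip3 lost its call without any 1 library other than the 3 KO non-TFH libraries (adjusted p 0.067 to 0.12), and Nfkbid lost it without WT TFH replicate 1 (0.081). Nfkbia, which encodes IkB-alpha, had a log2 change of -0.46 ± 0.25 (SE, limma adjusted p = 0.19); without KO non-TFH replicate 1 the adjusted p was 0.041. Nfkbiz (0.03) did not pass, nor did Myc (-0.33), which encodes a transcription factor of cell growth.

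The RGS genes, whose products switch off G protein signals such as those of chemokine receptors, were among the members furthest apart. Rgs1 was at 53.1, 49.6 and 53.2 FPKM in KO TFH libraries, against 254, 310.03 and 215 FPKM in WT TFH libraries. Rgs2 was at 18.4, 16.7 and 13.03 FPKM in KO TFH libraries, against 94.9, 104 and 96.3 FPKM in WT TFH libraries. No library overlapped, and the log2 change was -2.28 ± 0.29 (SE, limma adjusted p = 0.00014) for Rgs1 and -2.56 ± 0.62 (SE, limma adjusted p = 0.012) for Rgs2. Cd83, an activation marker of lymphocytes and dendritic cells, was at 209, 161 and 197 FPKM in KO TFH libraries, against 104, 194 and 158 FPKM in WT TFH libraries, which overlapped, with a log2 change of 0.35 ± 0.22 (SE).

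Several marker lists moved in the same comparison, and their part in these results was not tested. Macrophage and monocyte markers were lower in KO TFH cells for 15 of 17 and higher for 2, with a median log2 change of -2.40. Csf1r, which encodes the CSF1 receptor of macrophages, averaged 19.3 ± 2.02 FPKM in KO TFH cells and 152 ± 30.2 in WT TFH cells (SD, n = 3 each). Lyz2, the lysozyme of macrophages and neutrophils, was among the 2 that rose, at 756, 469 and 598 FPKM in KO TFH libraries, against 278 and 289 FPKM in the WT TFH libraries with a value (log2 change 1.07 ± 0.32 (SE, limma adjusted p = 0.031)). Itgam was the other, at 25.1, 30.8 and 27.0 FPKM in KO TFH libraries, against 1.17, 0.974 and 1.92 FPKM in WT TFH libraries. B cell markers summed to 41.6 to 46.4 FPKM in KO TFH libraries, against 69.8 to 76.3 FPKM in WT TFH libraries, and 3 of the 8 tested fell. Dendritic cell markers summed to 6.66 to 17.3 FPKM in KO TFH libraries, against 23.9 to 43.9 FPKM in WT TFH libraries, and 2 of the 5 tested fell. For these 3 lists, no marker was at 0 in every library of a TFH group. Of 5 heat shock genes 0 passed, with sums of 2183 to 2354 FPKM in KO TFH libraries and 2041 to 2325 FPKM in WT TFH libraries. T cell markers summed to 3358 to 4049 FPKM in KO TFH libraries and 3402 to 3534 FPKM in WT TFH libraries, with 2 of 7 higher and 2 lower. TFH markers rose for 3 of 6 and fell for 1, with sums over the 5 present in every library of 1010 to 1163 FPKM in KO TFH libraries, against 735 to 967 FPKM in WT TFH libraries.

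**Figure D3:**
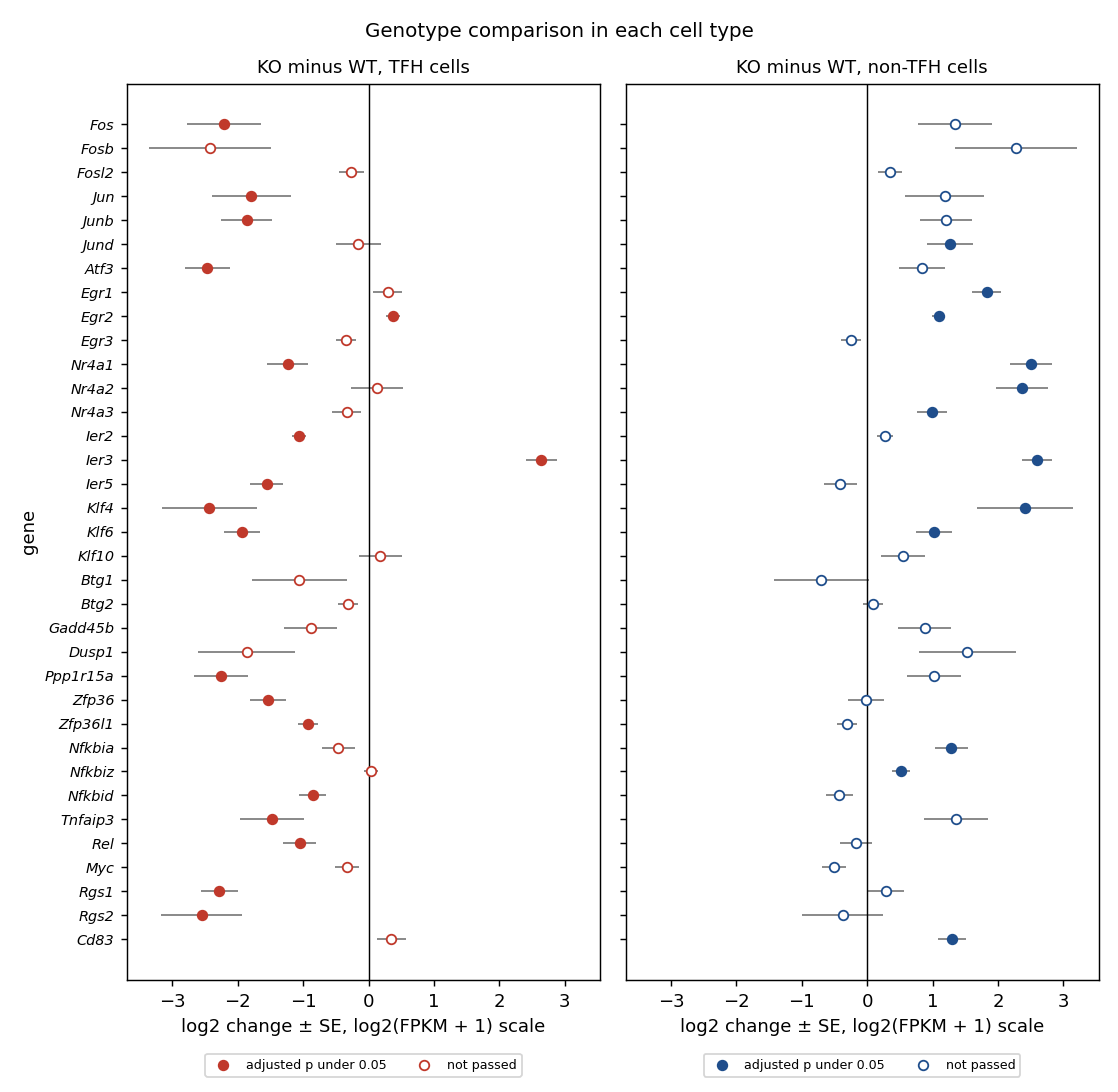
Log2 change between KO and WT (points) with its SE (bars) for the 35 members, in TFH cells (left) and non-TFH cells (right), on the log2(scaled FPKM + 1) scale. Filled points passed an adjusted p of 0.05: 17 lie below 0 and 2 above it in TFH cells, and 12 lie above 0 in non-TFH cells.

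In non-TFH cells the called members were higher in KO mice. Of the 35, 12 rose and 0 fell, and 23 did not pass; at an unadjusted p under 0.05, 19 were higher and 1 was lower, against 17.7% and 13.4% of all features at that p. By adjusted p, 11.8% of all features rose and 8.57% fell. The median log2 change of the members was 0.99, against 0.03 for all features. The members that rose included all 3 NR4A genes, Egr1 and Egr2, Ier3, Nfkbia and Cd83. Libraries did not overlap for 19 members higher and 3 lower in KO, against 29.1% and 23.1% of all features. Without KO non-TFH replicate 1, 11 rose and 2 fell, and 9 of the risen members were shared; over all features 20.4% were called with it and 15.3% without it.

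For the NR4A genes, KO and WT non-TFH libraries were apart. Nr4a1 stood at 228, 79.4 and 84.5 FPKM in KO non-TFH libraries, against 20.5, 18.6 and 19.4 FPKM in WT non-TFH libraries. Nr4a2 stood at 10.003, 2.71 and 4.56 FPKM in KO non-TFH libraries, against 0.196, 0.162 and 0.2003 FPKM in WT non-TFH libraries. Nr4a3 stood at 8.01, 8.702 and 8.14 FPKM in KO non-TFH libraries, against 3.505, 3.48 and 4.03 FPKM in WT non-TFH libraries. No KO non-TFH library overlapped a WT non-TFH library, and replicate 1 was far above its mates for Nr4a1 and Nr4a2 but not for Nr4a3. The log2 change was 2.51 ± 0.32 (SE, limma adjusted p = 0.00019) for Nr4a1, 2.36 ± 0.39 (SE, limma adjusted p = 0.0011) for Nr4a2 and 0.99 ± 0.23 (SE, limma adjusted p = 0.0087) for Nr4a3. Without replicate 1 it was 2.02 ± 0.13 (SE, adjusted p = 3.3e-06) for Nr4a1, 1.94 ± 0.36 (SE, adjusted p = 0.0035) for Nr4a2 and 1.01 ± 0.27 (SE, adjusted p = 0.028) for Nr4a3. WT levels of Nr4a2 lay under 1 FPKM, where the upper Cufflinks bound lay a median of 62.1% above the value.

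Egr1 and Egr2 rose and Egr3 did not pass. Egr1 was at 109, 79.7 and 79.99 FPKM in KO non-TFH libraries, against 25.3, 24.8 and 22.6 FPKM in WT non-TFH libraries. Egr2 was at 10.6, 11.7 and 12.1 FPKM in KO non-TFH libraries, against 5.02, 5.01 and 4.56 FPKM in WT non-TFH libraries. Neither pair of groups overlapped, and the KO libraries were close to each other. The log2 change was 1.83 ± 0.22 (SE, limma adjusted p = 0.00010) for Egr1 and 1.09 ± 0.11 (SE, limma adjusted p = 1.8e-05) for Egr2, and without replicate 1 it was 1.68 ± 0.24 (SE, adjusted p = 0.00065) for Egr1 and 1.14 ± 0.12 (SE, adjusted p = 8.7e-05) for Egr2. The Cufflinks interval of Egr2 in WT non-TFH replicate 3 ran from 0 to 17.4 FPKM. Egr3 was at 5.64, 6.92 and 6.82 FPKM in KO non-TFH libraries, against 8.34, 7.38 and 7.87 FPKM in WT non-TFH libraries, without overlap but with a log2 change of -0.25 ± 0.16 (SE).

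Ier3 and Cd83, both nearly silent in WT non-TFH cells, rose. Ier3 was at 6.91, 7.03 and 5.69 FPKM in KO non-TFH libraries, against 0.367, 0.298 and 0.0804 FPKM in WT non-TFH libraries. Cd83 was at 4.38, 5.03 and 3.13 FPKM in KO non-TFH libraries, against 0.867, 1.22 and 1.17 FPKM in WT non-TFH libraries. The KO libraries were all higher, with log2 changes of 2.60 ± 0.23 (SE, limma adjusted p = 9.7e-06) for Ier3 and 1.30 ± 0.22 (SE, limma adjusted p = 0.0011) for Cd83. Without replicate 1 these were 2.56 ± 0.27 (SE, adjusted p = 9.9e-05) for Ier3 and 1.26 ± 0.25 (SE, adjusted p = 0.0056) for Cd83. For Cd83 the interval of KO non-TFH replicate 1 ran from 0 to 19.7 FPKM. Ier2 was at 67.5 and 61.4 FPKM in KO non-TFH libraries, against 56.4, 47.7 and 56.00 FPKM in WT non-TFH libraries, without overlap but not past the threshold, and its KO non-TFH replicate 1 value was missing, joined to Nacc1. Ier5 (-0.41) did not pass.

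Among NF-kB feedback genes, Nfkbia and Nfkbiz rose. Nfkbia was at 339, 194 and 145 FPKM in KO non-TFH libraries, against 90.8, 82.1 and 87.1 FPKM in WT non-TFH libraries. Nfkbiz, a nuclear IkB protein that helps NF-kB open secondary response genes, was at 33.3 and 29.2 FPKM in KO non-TFH libraries, against 22.04 and 21.1 FPKM in WT non-TFH libraries, with KO replicate 3 and WT replicate 2 missing because they were joined to Nxpe3. Neither gene overlapped, and the log2 change was 1.28 ± 0.25 (SE, limma adjusted p = 0.0038) for Nfkbia and 0.51 ± 0.14 (SE, limma adjusted p = 0.027) for Nfkbiz. Nfkbia kept its call without KO non-TFH replicate 1 at 0.95 ± 0.17 (SE, adjusted p = 0.0027), and Nfkbiz, then with 1 KO library, was at 0.42 ± 0.17 (SE, adjusted p = 0.16). Nfkbiz also lost its call without WT non-TFH replicate 1 (adjusted p = 0.085) or replicate 3 (0.12). Tnfaip3 was at 148, 32.3 and 32.3 FPKM in KO non-TFH libraries, against 20.5, 20.5 and 20.1 FPKM in WT non-TFH libraries. All KO libraries were higher, but its log2 change of 1.36 ± 0.49 (SE, limma adjusted p = 0.085) passed only with array weights (1.33, adjusted p = 0.049) or without replicate 1, at 0.64 ± 0.19 (SE, adjusted p = 0.041). Rel (-0.17) and Nfkbid (-0.43) did not pass, but Nfkbid was called lower without WT non-TFH replicate 3 (-0.76, adjusted p = 0.037).

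Klf6, Klf4 and Jund rose, and the calls of several KLF and AP-1 genes turned on replicate 1. Klf6 was at 72.2, 35.5 and 46.4 FPKM in KO non-TFH libraries, against 22.7, 24.1 and 24.1 FPKM in WT non-TFH libraries, a log2 change of 1.03 ± 0.28 (SE, limma adjusted p = 0.021); it lost its call without replicate 1 (0.76, adjusted p = 0.077) or without any 1 WT non-TFH library (0.056 to 0.067). Klf4 was at 38.8, 3.42 and 3.16 FPKM in KO non-TFH libraries, against 0.568, 0.312 and 1.34 FPKM in WT non-TFH libraries, a log2 change of 2.42 ± 0.73 (SE, limma adjusted p = 0.041). Without replicate 1 it was 1.34 ± 0.33 (SE, adjusted p = 0.018), and it lost its call without any 1 WT non-TFH or KO TFH library or without WT TFH replicate 1 or 2 (0.053 to 0.13). Jund, of AP-1, was at 99.1, 49.1 and 41.2 FPKM in KO non-TFH libraries, against 27.7, 19.4 and 25.1 FPKM in WT non-TFH libraries. Jund had a log2 change of 1.26 ± 0.35 (SE, limma adjusted p = 0.025). It lost its call without KO non-TFH replicate 1 (0.89, adjusted p = 0.084), WT non-TFH replicate 2 (0.091) or WT non-TFH replicate 3 (0.058). Junb was at 738, 288 and 189 FPKM in KO non-TFH libraries, against 157, 119 and 174 FPKM in WT non-TFH libraries. It was higher in every KO library and not called (1.205 ± 0.40 (SE, limma adjusted p = 0.061)), and it passed without replicate 1 at 0.65 ± 0.19 (SE, adjusted p = 0.038). Fos was at 774, 231 and 131 FPKM in KO non-TFH libraries, against 149.8, 75.98 and 124 FPKM in WT non-TFH libraries. Fosb was at 73.6, 2.89 and 4.67 FPKM in KO non-TFH libraries, against 1.52, 1.36 and 1.43 FPKM in WT non-TFH libraries. Both were far highest in replicate 1 and neither was called, with log2 changes of 1.34 ± 0.56 (SE, limma adjusted p = 0.14) for Fos and 2.27 ± 0.93 (SE, limma adjusted p = 0.13) for Fosb. Without replicate 1 Fos was at 0.63 ± 0.35 (SE, adjusted p = 0.32) and Fosb at 0.95 ± 0.38 (SE, adjusted p = 0.14). Fosb passed without KO replicate 2 (3.08, adjusted p = 0.0498) and Fos without KO replicate 3 (1.90, 0.033). Klf4 also lost its call without the filter, with quantile normalization or with non-TFH libraries fitted alone (adjusted p 0.061 to 0.10). Junb also passed with array weights, with quantile normalization, without scaling or with zeros as missing (0.038 to 0.0498).

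Of the remaining members, Rgs2 and Zfp36l1 turned on replicate 1. Rgs2 was at 26.5, 4.27 and 3.31 FPKM in KO non-TFH libraries, against 18.5, 7.26 and 7.51 FPKM in WT non-TFH libraries. With all libraries its log2 change was -0.38 ± 0.62 (SE, limma adjusted p = 0.76), and without replicate 1 it fell, at -1.22 ± 0.32 (SE, adjusted p = 0.026). Zfp36l1 was at 87.3, 56.7 and 54.7 FPKM in KO non-TFH libraries, against 84.02, 81.6 and 75.9 FPKM in WT non-TFH libraries. Its log2 change was -0.31 ± 0.16 (SE, limma adjusted p = 0.21), and without replicate 1 it fell, at -0.52 ± 0.11 (SE, adjusted p = 0.0090). Ppp1r15a (1.02), Dusp1 (1.53), Jun (1.18), Gadd45b (0.88), Atf3 (0.83) and Klf10 (0.55) did not pass with all libraries, and neither did Fosl2, Btg1, Btg2, Zfp36, Myc and Rgs1. When KO non-TFH replicate 1 was left out, the change was 0.42 for Ppp1r15a, 0.51 for Dusp1, 0.40 for Jun, 0.56 for Gadd45b, 0.53 for Atf3 and 0.58 for Klf10, none of them called. Gadd45b passed without WT non-TFH replicate 2 (1.36, adjusted p = 0.013); that library was at 15.1 FPKM and its mates at 4.78 and 5.08. Ppp1r15a (1.47, adjusted p = 0.014) and Rgs1 (0.66, 0.046) passed without KO non-TFH replicate 3, Klf10 without KO TFH replicate 3 (0.55, 0.014) or with non-TFH libraries fitted alone (0.0061), and both Atf3 (0.82, 0.021) and Ier2 (0.26, 0.039) with array weights. Myc was called lower without WT TFH replicate 1 (-0.51, 0.048) and with array weights or quantile normalization (0.016 and 0.038).

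Markers of other cells moved in non-TFH cells as well. Of 17 macrophage markers 8 rose and 0 fell in KO non-TFH cells, with a median log2 change of 0.77. The 2 CD8 T cell markers summed to 95.9 to 107 FPKM in KO non-TFH libraries and 10.03 to 14.6 FPKM in WT non-TFH libraries. Nearly all of this was Cd8b1, which rose, at 101, 106 and 95.6 FPKM in KO non-TFH libraries. Cd8a did not pass and stood at only 0.178, 0.308 and 0.288 FPKM there. In TFH cells the sum of both markers was 38.0 to 46.8 FPKM in KO libraries and 7.54 to 12.3 FPKM in WT libraries, and both rose. Cd8a was at 4.11, 2.85 and 2.70 FPKM in KO TFH libraries. NK markers summed to 14.2 to 19.5 FPKM in KO non-TFH libraries and 1.45 to 1.99 FPKM in WT non-TFH libraries, and 1 of 2 rose in each cell type. Most of the sum in KO non-TFH libraries was Eomes, at 13.8, 17.5 and 13.2 FPKM, with Ncr1 at 1.51, 1.97 and 1.05 FPKM. Neutrophil markers summed to 41.8 to 57.1 FPKM in KO non-TFH libraries and 16.2 to 140 FPKM in WT non-TFH libraries, with 0 of 5 called there and 1 lower in TFH cells. Heat shock genes rose for 2 of 5, with sums of 1125 to 1621 FPKM in KO non-TFH libraries and 916 to 1255 FPKM in WT non-TFH libraries. B cell (8 tested) and dendritic cell (5) markers gave 0 calls in limma in non-TFH cells; Pax5 was at 0 in all KO non-TFH libraries and Fcrla in all WT non-TFH libraries. The part of other cells and of stress in the results was not tested.

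The change by genotype itself differed between the cell types. In a test of the difference between both changes (the interaction), 19 of 35 members were lower and 0 higher, against 10.6% lower and 6.82% higher (17.4% called) over all features; at an unadjusted p under 0.05, 28 members were lower and 0 higher, against 16.5% and 12.9% of all features at that p. The median difference was -1.51, against 0.01 for all features. Nr4a1, Klf4 and Klf6 fell in KO TFH cells but rose in KO non-TFH cells. Egr2 and Ier3 rose in both cell types. Another 14 members fell in TFH cells and were not called in non-TFH cells, 7 rose in non-TFH cells and were not called in TFH cells, and 9 passed in neither. Shares of all features in these joint classes were not computed, so the counts describe the members alone.

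The difference was -3.75 ± 0.45 (SE, limma adjusted p = 0.00025) for Nr4a1, -4.85 ± 1.03 (SE, limma adjusted p = 0.0089) for Klf4 and -2.97 ± 0.39 (SE, limma adjusted p = 0.00041) for Klf6 on the log2 scale. Ier3, with changes of 2.64 ± 0.23 in TFH and 2.60 ± 0.23 in non-TFH cells (SE), was not called, at 0.04 ± 0.33 (SE, limma adjusted p = 0.95). These equal changes on the log2(FPKM + 1) scale, which understates changes of low genes, are not equal folds. Ier3 averaged 26.1 FPKM in KO TFH and 3.33 in WT TFH cells, and 6.54 in KO non-TFH and 0.248 in WT non-TFH cells. Egr2 rose less in TFH cells, with a difference of -0.72 ± 0.15 (SE, limma adjusted p = 0.0060). Among AP-1 genes, Fos (-3.55), Fosb (-4.71), Jun (-2.98), Junb (-3.07) and Atf3 (-3.30) passed. All 3 NR4A genes passed, and so did Egr1 (-1.54), Ier2 (-1.34), Ier5 (-1.15), Zfp36 (-1.51), Ppp1r15a (-3.28), Nfkbia (-1.75), Tnfaip3 (-2.84) and Rgs1 (-2.56). When KO non-TFH replicate 1 was left out, the difference was -2.84 for Fos, -3.38 for Fosb, -2.20 for Jun, -2.52 for Junb, -3.26 for Nr4a1, -3.78 for Klf4, -2.70 for Klf6, -2.68 for Ppp1r15a, -2.12 for Tnfaip3 and -2.20 for Rgs1. Without it, 19 were again lower, against 14% of all features called, and 18 were shared; Ier5 lost its call (adjusted p = 0.095) and Dusp1 gained one (-2.37, 0.0063). With array weights 12 members were lower, against 17% of all features called, and Fos, Fosb, Jun, Ier5, Klf4, Zfp36 and Tnfaip3 lost their calls (adjusted p 0.059 to 0.13). With quantile normalization Fosb, Jun, Nr4a2, Nr4a3 and Ier5 lost theirs (0.050 to 0.096). Fosb lost its call without any 1 WT library or without KO TFH replicate 2 or 3 (adjusted p 0.056 to 0.078). Among the fits that leave out 1 library, Jun kept its call only without KO non-TFH replicate 1 or 3, WT TFH replicate 1 or KO TFH replicate 2 (0.053 to 0.092 without the others). In these fits Ier5 kept its call only without KO non-TFH replicate 3, WT TFH replicate 3 or KO TFH replicate 2 (0.059 to 0.11 without the others). Cd83 was called lower without scaling, with a pseudocount of 0.1 or with zeros as missing (0.012 to 0.049), Dusp1 (0.042) and Gadd45b (0.043) with zeros as missing, and Nfkbiz (0.049) with quantile normalization. Leaving out 1 library also added calls, all lower: Gadd45b without WT non-TFH replicate 2 (-2.25, adjusted p = 0.0054) or KO non-TFH replicate 3, Cd83 without WT TFH replicate 1 (-1.198, 0.0074) or KO non-TFH replicate 3, Klf10 (-0.89, 0.013) without KO TFH replicate 3, Rel (-1.16, 0.020) without KO TFH replicate 1, Btg2 (-0.59, 0.033) without WT TFH replicate 3, Dusp1 without KO non-TFH replicate 3 (-4.02, 0.026), and Jund without KO non-TFH replicate 3, WT TFH replicate 1 or KO TFH replicate 2 (0.041 to 0.048).

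**Figure D4:**
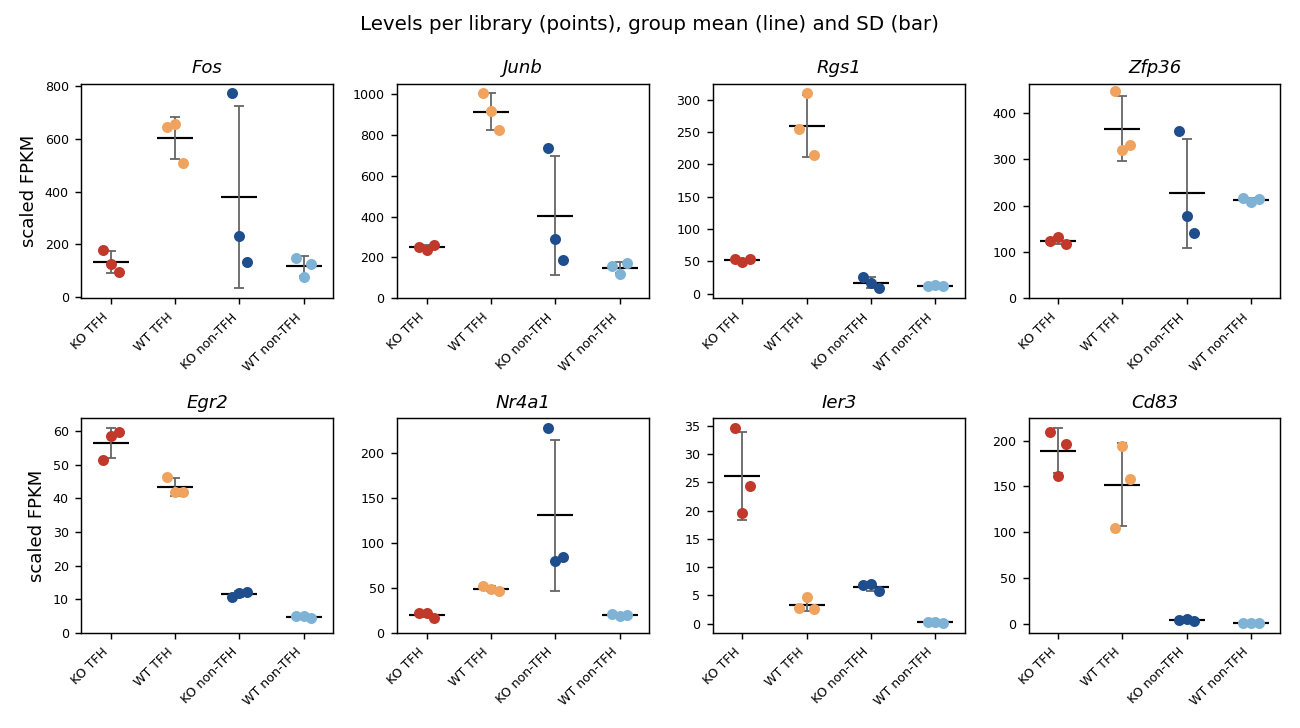
Scaled FPKM of 8 members in the 4 groups, with each library as a point, the group mean as a line and its SD as a bar; vertical axes start at 0 and differ between genes. Fos, Junb, Rgs1 and Zfp36 are lower in KO TFH than in WT TFH libraries, Nr4a1 is lower in KO TFH and higher in KO non-TFH libraries than in WT, and Ier3 is higher in KO libraries of both cell types.

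Between cell types, WT mice had more of these transcripts in TFH than in non-TFH cells. In WT mice 26 members were higher and 6 lower in TFH cells, and 3 were not called, against 35.3% higher and 32.1% lower (67.5% called) over all features. The median log2 difference was 1.78. In KO mice 10 were higher and 12 lower, against 33.5% and 33.6% (67.1% called) over all features, with a median of -0.46. Quantile normalization turned the split in KO mice to 8 higher and 15 lower, with 7364 of all 11108 features called. Without KO non-TFH replicate 1 the split in KO mice was 13 higher and 10 lower, against 62.2% of all features called. In WT mice the split without that library was 27 higher and 6 lower, against 66.2% called. Macrophage markers stood beside these results too, at the sums given above, and their part was not tested. Levels are relative to the scaling, without which the median of all features differed by 0.37 log2 between TFH and non-TFH cells in WT mice and by 0.27 in KO mice.

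Higher in TFH cells of both genotypes were Egr2, Ier2, Ier3, Klf10, Btg2, Gadd45b, Nfkbiz, Nfkbid, Rgs1 and Cd83. Shares of all features were not computed for this or the other classes that join both genotypes. Cd83 averaged 189 ± 24.7 FPKM in KO TFH and 4.18 ± 0.969 in KO non-TFH cells, and 152 ± 45.1 in WT TFH and 1.08 ± 0.189 in WT non-TFH cells (SD, n = 3 each). Its log2 difference was 5.20 ± 0.22 (SE, limma adjusted p = 3.2e-09) in KO and 6.16 ± 0.22 (SE, limma adjusted p = 9.6e-10) in WT mice. Egr2 averaged 56.4 ± 4.47 FPKM in KO TFH and 11.5 ± 0.812 in KO non-TFH cells, and 43.4 ± 2.64 in WT TFH and 4.86 ± 0.264 in WT non-TFH cells. Rgs1, which is known to be high in TFH cells, averaged 51.97 ± 2.04 and 16.8 ± 8.79 FPKM in KO TFH and KO non-TFH cells, and 259.7 ± 47.9 and 12.5 ± 0.9897 FPKM in WT TFH and WT non-TFH cells. Lower in TFH cells of both genotypes were Fosl2, Jund, Egr3, Ier5, Zfp36l1 and Myc. Myc averaged 17.3 ± 1.598 FPKM in KO TFH and 31.1 ± 4.78 in KO non-TFH cells, and 22.3 ± 4.61 in WT TFH and 44.9 ± 9.35 in WT non-TFH cells, with log2 differences of -0.80 ± 0.18 (SE, limma adjusted p = 0.0018) in KO and -0.98 ± 0.18 (SE, limma adjusted p = 0.00045) in WT mice.

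Nr4a1, Klf4, Ppp1r15a and Zfp36 were higher in TFH cells of WT mice and lower in TFH cells of KO mice. For Nr4a1 the log2 difference was -2.46 ± 0.32 (SE, limma adjusted p = 3.7e-05) in KO and 1.29 ± 0.32 (SE, limma adjusted p = 0.0038) in WT mice. In KO mice without KO non-TFH replicate 1 the difference was -1.97 for Nr4a1, -1.66 for Klf4 and -0.70 for Ppp1r15a, each still called. For Zfp36 it was -0.74 ± 0.27 (SE, limma adjusted p = 0.033) in KO and 0.77 ± 0.27 (SE, limma adjusted p = 0.028) in WT mice. Zfp36 lost its call in KO mice without KO non-TFH replicate 1 (-0.35, adjusted p = 0.057) or without any 1 KO TFH library (0.054 to 0.084), and in WT mice without any 1 WT non-TFH library or WT TFH replicate 1 (0.060 to 0.098). Without scaling its log2 difference in KO mice was -0.44 (adjusted p = 0.18), and with quantile normalization that in WT mice was 0.31 (0.31). Another 12 members, among them Fos, Junb, Dusp1, Tnfaip3, Rel and Rgs2, were higher in TFH cells of WT mice and not called in KO mice. Without KO non-TFH replicate 1, Dusp1 (1.27, adjusted p = 0.0075), Nfkbia (0.59, 0.010) and Rgs2 (1.83, 0.00053) were higher in TFH cells of KO mice too. Jun and Nr4a3 were lower in TFH cells of KO mice and not called in WT mice, Jun at an adjusted p of 0.049 that was lost without any 1 library except KO non-TFH replicate 3 or KO TFH replicate 2 (0.055 to 0.13), and Btg1 was called in neither. In WT mice Fosb lost its call without any 1 WT library, Klf4 without replicate 1 or 2 of either WT group, Jund without WT TFH replicate 1 and Rel without WT TFH replicate 3 (adjusted p 0.052 to 0.079). In KO mice Nfkbid lost it without KO non-TFH replicate 2 or 3 and also without KO TFH replicate 1 or 3, Ier2 without KO non-TFH replicate 3 and Ppp1r15a without KO TFH replicate 3 (0.056 to 0.072). Without KO non-TFH replicate 3, Fos (-1.71, adjusted p = 0.016), Fosb (-2.65, 0.048) and Junb (-0.88, 0.037) were also lower in TFH cells of KO mice, Fosb also without KO non-TFH replicate 2 (-2.92, 0.019) and Atf3 without KO TFH replicate 1 (-1.003, 0.014). With array weights Fosb, Klf4 and Zfp36 lost their calls in WT mice (adjusted p 0.13 to 0.15). In KO mice Jun, Zfp36 and Ppp1r15a lost theirs with array weights, without scaling or with KO libraries fitted alone (0.056 to 0.18), and Ier2 and Btg2 with quantile normalization (0.49 and 0.21). With that normalization Fos, Junb and Btg1 were called lower in TFH cells of KO mice (0.023 to 0.035). Jun was higher in TFH cells of WT mice without KO non-TFH replicate 1 (1.48, adjusted p = 0.0017) or 3 (0.026), without scaling, with zeros as missing or with WT libraries fitted alone (0.0019 to 0.039).

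**Figure D5:**
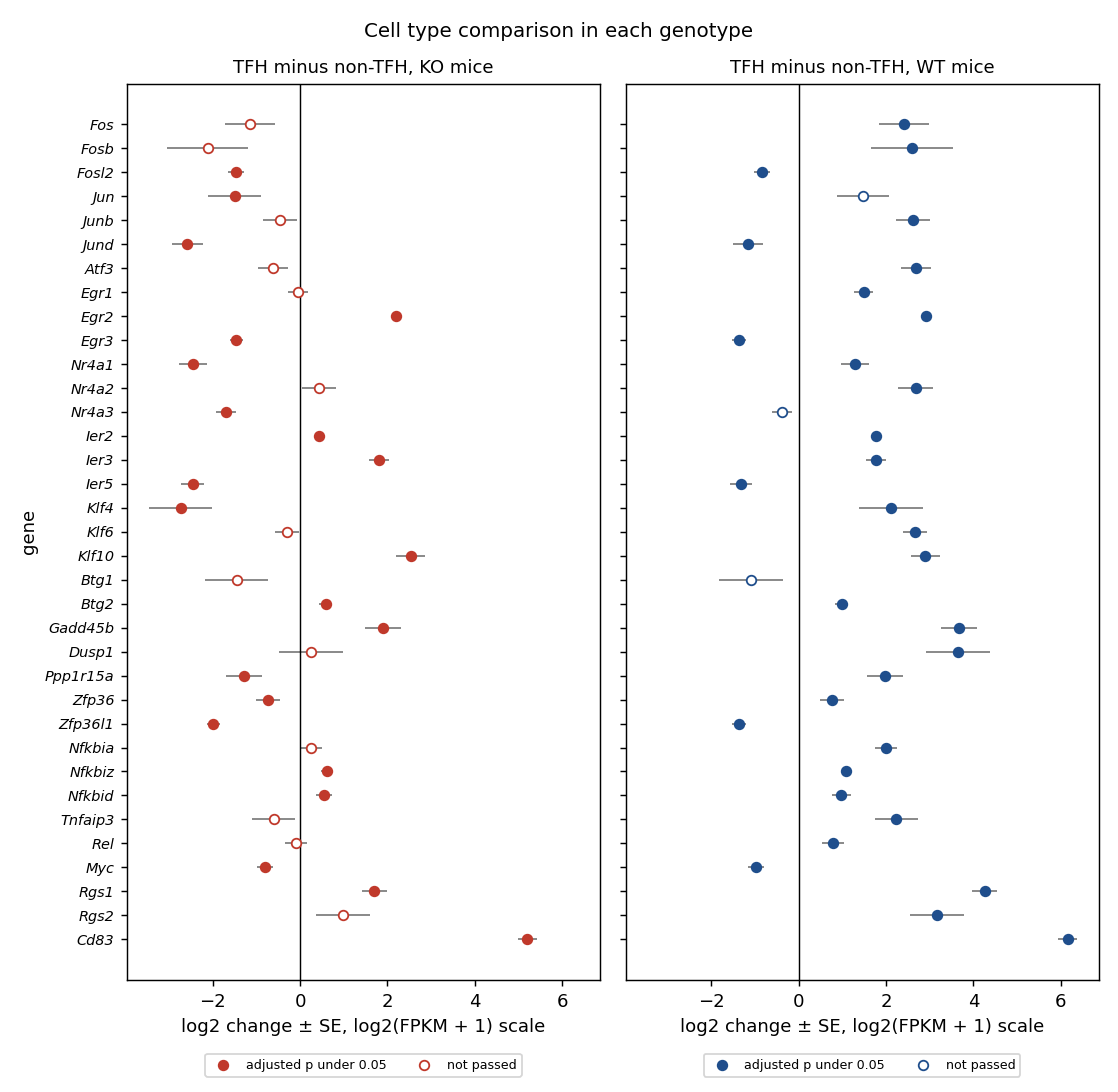
Log2 difference between TFH and non-TFH cells (points) with its SE (bars) for the 35 members in KO mice (left) and WT mice (right), on the log2(scaled FPKM + 1) scale. Filled points passed an adjusted p of 0.05: 10 above and 12 below 0 in KO mice, and 26 above and 6 below 0 in WT mice.

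Many members are short genes, a feature that their choice did not use. In the GENCODE annotation of GRCm38 their median span was 5412 bp with 4 exons, against 24234 bp and 9 exons over 9703 tested features. A single exon was found in 5 members (14.3%), Jun, Junb, Jund, Ier2 and Ier5, against 2.06% of tested features. Spans under 5000 bp were found in 14 members (40%), against 10.2%. The other 21 were longer in this annotation, among them Atf3, Nr4a3 and Rel. For Dusp1 it gives 56539 bp, from 26505590 to 26562128 on the minus strand of chromosome 17. The RefSeq promoter of Dusp1 lies inside that span, at 26508473 to 26508722. Counted from the RefSeq start, Dusp1 is a much shorter gene. Fos lies on the plus strand of chromosome 12, 85473890 to 85477273, Rgs1 on the minus strand of chromosome 1, 144242296 to 144249242, and Nr4a1 on the plus strand of chromosome 15, 101254269 to 101274795. Genes on the other strand overlap Jun (Junos), Junb (Prdx2), Jund (Gm11175), Ppp1r15a (Tulp2) and the long annotated span of Dusp1 (Ergic1), among others. The sources used here do not give the strand setting of the authors' counting, so reads of these partners may be split between them.

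Other genes of the same pathways moved in both directions. Of 55 tested AP-1, EGR, SRF, KLF, NF-kB, calcium and feedback genes outside the 35, 20 fell and 9 rose in KO TFH cells, with a median log2 change of -0.34. In non-TFH cells 12 rose and 6 fell, with a median of 0.08. Of 22 NF-kB subunits and regulators, 6 fell and 2 rose in TFH cells, and 3 fell and 1 rose in non-TFH cells, against 30.6% and 20.4% of all features called either way in these comparisons. The 4 called genes with the largest log2 change in TFH cells were Traf1, an adaptor of TNF receptors, Tnfaip8l2, known as a brake on T cell receptor signalling, Dusp4, a phosphatase of ERK, and Nfkb1. Traf1 averaged 18.05 ± 3.895 FPKM in KO TFH cells and 104 ± 19.7 in WT TFH cells, a log2 change of -2.47 ± 0.38 (SE, limma adjusted p = 0.00074). In KO non-TFH cells it averaged 5.89 ± 4.84 FPKM, against 47.6 ± 4.43 in WT non-TFH cells, a log2 change of -3.03 ± 0.38 (SE, limma adjusted p = 0.00021). Tnfaip8l2 had log2 changes of -2.01 ± 0.20 (SE, limma adjusted p = 2.5e-05) in TFH and -1.94 ± 0.20 (SE, limma adjusted p = 3.1e-05) in non-TFH cells. Dusp4 rose in both cell types. It averaged 18.7 ± 4.91 FPKM in KO TFH against 4.31 ± 0.575 in WT TFH cells, and 15.6 ± 1.67 in KO non-TFH against 0.671 ± 0.2296 in WT non-TFH cells. Its log2 changes were 1.86 ± 0.20 (SE, limma adjusted p = 3.6e-05) in TFH and 3.31 ± 0.20 (SE, limma adjusted p = 3.8e-07) in non-TFH cells. Nfkb1, which encodes the p50 subunit, rose in TFH cells (1.47 ± 0.21 (SE, limma adjusted p = 0.00032)) and was not called in non-TFH cells (-0.10 ± 0.21 (SE, limma adjusted p = 0.81)). Nab2, a corepressor of EGR proteins, was listed at 56.1, 55.5 and 64.7 FPKM in KO non-TFH libraries, against 0, 0 and 19.9 FPKM in WT non-TFH libraries. Its adjusted p was 0.048, it passed in 9 of 21 alternative analyses, and no fold is given because the listed zeros may be failed estimates.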

How the data were processed

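RNA was measured in 12 libraries of sorted splenic CD4 T cells, 3 in each of 4 groups, made with a stranded mRNA kit per the labels' protocols. The authors deposited FPKM per gene, in 1 Cufflinks table per library. Per the submitters' processing notes, reads were handled with cutadapt and FastQC, TopHat and TopHat2, Bowtie and Bowtie2, Cufflinks and Cuffdiff on build mm10; versions and settings of these tools were not stated. The deposited FPKM carry confidence bounds but no counts. Depth was estimated from those bounds at unnamed loci longer than 1500 bp, so no counting intervals are given. For members at 10 FPKM or more the upper bound lay a median of 5.56% above the value, and at 1 to 10 FPKM 17.3% above it.

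Entries were matched by symbol, and symbols that shared an entry in most libraries were summed into 790 joint features of 23241. A value missing because Cufflinks joined a member to a neighbour stayed missing. FPKM were scaled by the median ratio over 7158 features at 1 FPKM or more in all libraries (factors 0.857 to 1.14). A feature was tested if 3 or more libraries had at least 1 FPKM (11108 features). The test was limma 3.58.1 (R 4.3.3) on log2(FPKM + 1), which understates changes of low genes. Group means of the 12 libraries were fitted together, with trended variance and robust moderation, and adjusted p-values (Benjamini-Hochberg over all features, threshold 0.05) gave the calls. Where leaving out a library left a gene with 1 value in a group, that value was assumed to vary like the other groups. On data simulated over 10071 features, the fit recovered 66.5% of 2-fold changes between KO and WT in TFH cells, 69% in non-TFH cells and 47% in the interaction. The 200 changed features per comparison excluded those with low means, and the simulated noise was even across groups, with no outlying library. These rates therefore need not hold for low members or for these libraries.

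The members, the lists of other pathway genes, the marker lists (T, TFH, macrophage, B, dendritic, neutrophil, NK and CD8 T cells and heat shock) and the motifs were chosen with earlier results of these data known. Members called by genotype or in the interaction are named with their libraries' values, other members with ranges or changes; of other pathway genes, the 4 called with the largest change in each comparison by genotype are named. Gene structure came from GENCODE M21 and promoters from RefSeq. Python 3.11.15 with pandas 2.3.3, numpy 2.4.6 and matplotlib 3.10.9 was used for tables and plots. Alternatives were no scaling, quantile normalization, a pseudocount of 0.1, a filter at 5 FPKM, no filter, zeros as missing, array weights, the groups of a comparison alone, a replicate block, and each library left out.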

Additional observations from a re-analysis of the deposited data

Results flagged for a closer look

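In a test of the difference itself, the KO against WT change in TFH cells minus that in non-TFH cells (limma, adjusted p under 0.05), 19 members stood out, each with a lower change in TFH cells. On the log2 scale the AP-1 genes were Fos (-3.55, adjusted p = 0.014), Fosb (-4.71, adjusted p = 0.037), Jun (-2.98, adjusted p = 0.040), Junb (-3.07, adjusted p = 0.0044) and Atf3 (-3.30, adjusted p = 0.00080). The EGR and NR4A genes were Egr1 (-1.54, adjusted p = 0.0055), Egr2 (-0.72, adjusted p = 0.0060), Nr4a1 (-3.75, adjusted p = 0.00025), Nr4a2 (-2.24, adjusted p = 0.016) and Nr4a3 (-1.33, adjusted p = 0.014). The IER and KLF genes were Ier2 (-1.34, adjusted p = 0.00027), Ier5 (-1.15, adjusted p = 0.049), Klf4 (-4.85, adjusted p = 0.0089) and Klf6 (-2.97, adjusted p = 0.00041). The feedback genes were Zfp36 (-1.51, adjusted p = 0.021), Ppp1r15a (-3.28, adjusted p = 0.0038), Nfkbia (-1.75, adjusted p = 0.0061), Tnfaip3 (-2.84, adjusted p = 0.020) and Rgs1 (-2.56, adjusted p = 0.0013). KO non-TFH replicate 1 was at least 2-fold above its mates for 14 members, Fos, Fosb, Jun, Junb, Nr4a1, Nr4a2, Klf4, Zfp36, Ppp1r15a, Tnfaip3 and Rgs1 of these 19 among them. Without it 18 of the 19 were still lower and Ier5 was not (adjusted p = 0.095). Macrophage markers moved in opposite directions in the 2 cell types, with a median log2 change of -2.40 in TFH and 0.77 in non-TFH cells. The part of either in these differences was not tested.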

How the results depend on the processing

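With array weights, 8 members instead of 19 were called between KO and WT in TFH cells and 12 instead of 19 in the interaction; the cause was not tested. No member that was called changed direction under any of the alternatives, and the other counts of called members stayed within 1.5 times of those reported. Over the fits that leave out 1 library, the count ranged from 14 to 22 in TFH cells, 9 to 16 in non-TFH cells, 28 to 33 between cell types in WT mice, 18 to 23 in KO mice and 16 to 23 in the interaction. Of all 11108 features, these fits called 2890 to 3332 in TFH cells and 1682 to 2464 in non-TFH cells. Between cell types they called 6953 to 7571 in WT mice and 6912 to 7655 in KO mice, and in the interaction 1497 to 2090. With the replicate number as a block, 17 members were called in TFH cells and 12 in non-TFH cells. For cell types and the interaction, the block joined genotype and replicate number, as if TFH and non-TFH libraries of a number were paired. With it, 31 members were called between cell types in WT mice, 25 in KO mice and 17 in the interaction. In the same order, 3232, 2100, 7216, 7183 and 1406 of all 11108 features were called with these blocks. The blocks took the calls of Jun (adjusted p = 0.083) and Tnfaip3 (0.052) in TFH cells and Jund (0.054) in non-TFH cells. Also lost were Jund (0.0502) and Nfkbid (0.099) between cell types in WT mice, Jun (0.10) in KO mice, and Jun (0.12) and Ier5 (0.083) in the interaction. The blocks added Atf3 (0.043) in non-TFH cells, Btg1 (0.011) in WT mice, and Fos (0.033), Fosb (0.038), Atf3 (0.035) and Btg1 (0.0030) in KO mice. Over the tested features with a value in every library, libraries with the same number did not deviate together. The correlations between their deviations from the group means were -0.03 to 0.06, so the numbers were not taken to pair samples. Such correlations cannot exclude pairing for single members. Jun in replicate 1 was 0.619-fold its mates in KO TFH and 0.613-fold in WT TFH cells, whereas Klf6 was 1.31-fold and 0.640-fold. Jun and Tnfaip3 passed in 8 of 21 alternatives in TFH cells and Klf4 in 10 of 21 in non-TFH cells, while Ier2, Ier3, Ier5, Klf6, Atf3, Zfp36l1, Rel and Rgs1 passed in all 21 in TFH cells, and Egr1, Egr2, the NR4A genes, Ier3, Nfkbia and Cd83 in all 21 in non-TFH cells. Changes of members under 1 FPKM, where intervals are wide, are the least precise.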

Other observations

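Of the 9 members called in neither comparison by genotype, Fosb, Dusp1, Gadd45b and Klf10 each had 1 library at least 3-fold above the mean of its mates. For Fosb (19.5-fold) and Dusp1 (8.54-fold) it was KO non-TFH replicate 1. Klf10 was at 77.8 FPKM in KO TFH replicate 3, against 27.8 and 23.9 FPKM in the other KO TFH libraries. Gadd45b was at 15.1 FPKM in WT non-TFH replicate 2, against 4.78 and 5.08 FPKM in the other WT non-TFH libraries.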
